A study of Mus musculus with 4 samples.

Results

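Genes that cut, carry and load peptides for class I presentation were measured in mouse bone marrow-derived macrophages (BMDMs), which are primary macrophages grown from marrow. The members are 10 genes chosen by symbol: Tap1, Tap2, Tapbp, Tapbpl, Erap1, Psmb8, Psmb9, Psmb10, Psme1 and Psme2. All 10 were found among the 34745 gene IDs of the count table and all 10 passed the filter on low counts. The cells came from C57BL/6 mice, and every library, controls included, was made from cells that had been transfected with a small interfering RNA (siRNA) and given lipopolysaccharide (LPS), a bacterial wall component that activates macrophages. The groups compared were 2 libraries with Acly-E14 siRNA and 2 libraries with control siRNA. Acly encodes ATP citrate lyase, which makes cytosolic acetyl-CoA; the labels give no meaning for E14, no transfection or LPS time, no dose and no age. Whether the libraries of a group are separate cultures or animals is not stated in the labels, so each p-value reflects only how far these libraries differ, which may be technical.

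Class I molecules present, at the cell surface, peptides mostly cut from cytosolic proteins by the proteasome. Interferons replace the 3 catalytic beta subunits of the proteasome with the inducible ones encoded by Psmb8, Psmb9 and Psmb10, which gives the immunoproteasome. They also raise the PA28 cap, built from the products of Psme1 and Psme2. The transporter formed by TAP1 and TAP2 moves peptides into the endoplasmic reticulum, where ERAP1 trims them and tapasin (Tapbp) helps to fit them into the class I groove. TAPBPR (Tapbpl) is a tapasin relative that edits peptides outside the loading complex. In macrophages LPS raises these genes largely through interferon and NF-kB signalling.

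The members lie in 5 places of the mouse genome, given here as GENCODE M21 gene spans on GRCm38 (mm10). On chromosome 17, inside the class II region, Psmb9 (34181987 to 34187764, minus strand), Tap1 (34187553 to 34197225), Psmb8 (34197721 to 34201454) and Tap2 (34203527 to 34216321, all plus) follow each other, and Tapbp (33915899 to 33929292, plus) lies on the same chromosome. Psme1 (55578123 to 55581529, plus) and Psme2 (55587441 to 55591113, minus) are neighbours on chromosome 14. Erap1 is on chromosome 13 (74639568 to 74693201, plus), Psmb10 on chromosome 8 (105935735 to 105938444, minus) and Tapbpl on chromosome 6 (125223933 to 125231860, minus).

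Promoter windows of 3 members are shown, each the 250 bases before the RefSeq start on GRCm38.p6, written 5′ to 3′ on the strand of the gene. The Tap1 window (chr17:34187306-34187555, plus strand) is shown because Psmb9 starts from the opposite strand of the same stretch, with 225 bases between both starts. The Psmb8 window (chr17:34197945-34198194, plus strand) is shown as that of the next gene, and the Erap1 window (chr13:74639603-74639852, plus strand) as that of the member with the lowest level relative to control. Capitals mark matches to any of 3 motifs searched on both strands. These were the core of the interferon-stimulated response element (ISRE, GAAA and GAAA with 2 bases of any kind between), the gamma-activated site (GAS, TTC and GAA with 3 bases between) and a loose kappaB pattern (GGG and CC with 5 bases between).
Tap1: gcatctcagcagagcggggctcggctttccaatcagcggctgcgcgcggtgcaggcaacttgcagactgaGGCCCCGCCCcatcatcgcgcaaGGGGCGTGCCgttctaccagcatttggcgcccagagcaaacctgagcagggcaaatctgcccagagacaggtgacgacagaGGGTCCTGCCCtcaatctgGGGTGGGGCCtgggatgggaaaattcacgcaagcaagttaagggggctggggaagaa
Psmb8: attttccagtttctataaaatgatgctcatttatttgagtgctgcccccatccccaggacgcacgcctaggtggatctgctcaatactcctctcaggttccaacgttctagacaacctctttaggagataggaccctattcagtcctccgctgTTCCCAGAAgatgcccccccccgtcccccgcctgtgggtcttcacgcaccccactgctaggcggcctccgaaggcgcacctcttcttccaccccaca
Erap1: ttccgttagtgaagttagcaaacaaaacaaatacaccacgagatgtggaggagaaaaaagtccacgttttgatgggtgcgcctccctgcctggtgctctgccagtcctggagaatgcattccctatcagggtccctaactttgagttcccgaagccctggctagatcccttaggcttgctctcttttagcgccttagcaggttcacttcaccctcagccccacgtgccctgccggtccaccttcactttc

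The promoter table matched 8 of the 10 members, with 9 windows since Psme2 has 2 starts, and no entry was used for Tap2 and Tapbpl. The windows of Psmb8, Psmb9, Erap1, Tapbp and Psme1 lie wholly inside the GENCODE spans given above. Annotated starts of these genes upstream of the windows were not searched. None of the 9 windows held the ISRE letters, which 2.98% of all 32851 windows of that length hold. Only the Psmb8 window held the GAS letters, 97 to 89 bases before the start, against 7.02% of all windows. The kappaB letters occurred in the windows of Tap1, Psmb9, Psme1 and Psme2, and in 45.8% of all windows. Of the 5 matches in the Tap1 window, those starting 76 and 75 bases before the start overlap, and the printed capitals join them. The GC box GGGCGG lay in windows of 5 members (Tap1, Psmb9, Psme1, Psme2 and Tapbp) and in 32.7% of all windows, and its Tap1 match lies inside a kappaB match. CCAAT lay in those of Tap1, Psmb9 and Tapbp and in 33.8% of all. The Tap1 and Psmb9 windows overlap, and the matches counted for both genes are the same bases read from opposite strands. These matches describe letters only.

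Library totals ran from 21023197 to 21837806 counts. Acly itself stood at 158 and 154 counts scaled to library size (CPM, with trimmed-mean factors, TMM) in the controls and at 118 and 127 CPM with Acly-E14 siRNA, 78.3% of control (edgeR adjusted p = 0.0086, and 0.0583 without control library 1). Over all 13108 genes tested, edgeR's quasi-likelihood test called 2090 lower (15.9%) and 2264 higher (17.3%) at an adjusted p under 0.05. With library totals in place of TMM factors the split was 1446 lower and 2776 higher. Single libraries moved both counts. Omitting control library 1 left 982 lower and 1175 higher, omitting the first Acly-E14 siRNA library left 1387 and 1477, and omitting the second left 1043 and 1045. Fibroblast and stroma markers moved with the groups. Of 15 tested markers, 14 were higher and 0 lower by edgeR, DESeq2 and limma alike (15 and 0 at an unadjusted p), none was at 0 counts in all libraries, and their summed level was 870 to 1350 CPM of the library total in controls and 3291 to 4123 CPM with Acly-E14 siRNA. Macrophage identity genes, on the same scale, summed to 17320 to 18305 and to 17737 to 18339 CPM, ranges that overlap without TMM factors. Most of that sum was Ctss and Lyz2. With TMM factors, 4 of 19 tested were higher and 7 lower, with a median log2 fold change of -0.13. Cd68 and Csf1r were among the lower (-0.68 and -0.38), and Cd14 and Msr1 among the higher (1.03 and 0.39). Of 11 T and NK cell genes, 6 were at 0 counts throughout, among them Cd3e, Nkg7 and Ifng, and the list summed to at most 1.05 CPM. Of 8 neutrophil markers, 3 could be tested, with 2 higher and 1 lower. The list summed to 88.9 to 99.2 CPM in controls and 143 to 145 CPM with Acly-E14 siRNA. Most of that sum was Csf3r, at 84.5 and 94.6 against 131 and 128 CPM with TMM factors. On that scale S100a8 stood at 6.41 and 5.24 against 8.05 and 10.8 CPM. S100a9 stood at 1.34 and 1.12 against 0.137 and 0.0457 CPM. The part of these other cells in the results below was not tested, and in bulk RNA fewer cells of a type and less RNA per cell cannot be told apart.

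All 10 members had lower levels with Acly-E14 siRNA, by 10.2% to 29.2%, while 49.8% of all genes tested had a log2 fold change below 0. Of the 10, edgeR called 7 lower, against 15.9% of all genes, and 0 higher. At an unadjusted p under 0.05, 9 were lower and 0 higher, and the matching share over all genes was not counted. DESeq2 called 6 lower and limma 3 (on log2(FPKM + 1), without TMM factors), with 0 higher by both. Over all genes, DESeq2 called 1662 lower and 1744 higher, and limma 1389 lower and 2669 higher. On omitting any 1 library, which left 1 in its group, fewer members and fewer of all genes were called lower. The members' median log2 fold change was then -0.20 without control library 1 and -0.27 without control library 2. It was -0.28 without the first Acly-E14 siRNA library and -0.22 without the second. With library totals in place of TMM factors 4 members were called lower, as were 1446 of all genes. The members' log2 fold changes then ran from -0.41 (Erap1) to -0.06 (Psme2), with Psmb8 at -0.07 and Tap1 at -0.16. Their median with TMM factors was -0.25, against 0.0027 over all genes tested. Among the 2039 genes at least as abundant as Psmb9, the least abundant member by CPM, 39.8% were called lower and 16.0% higher, and the median was -0.14, so abundant genes leaned to lower values as a class. In each of the 10 members both Acly-E14 siRNA libraries lay below both controls, which held for 35.3% of all genes tested and 57.7% of those abundant ones. Summed over the members, the level with TMM factors was 4727 to 4979 CPM in controls and 4021 to 4082 CPM with Acly-E14 siRNA.

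**Figure D1:**
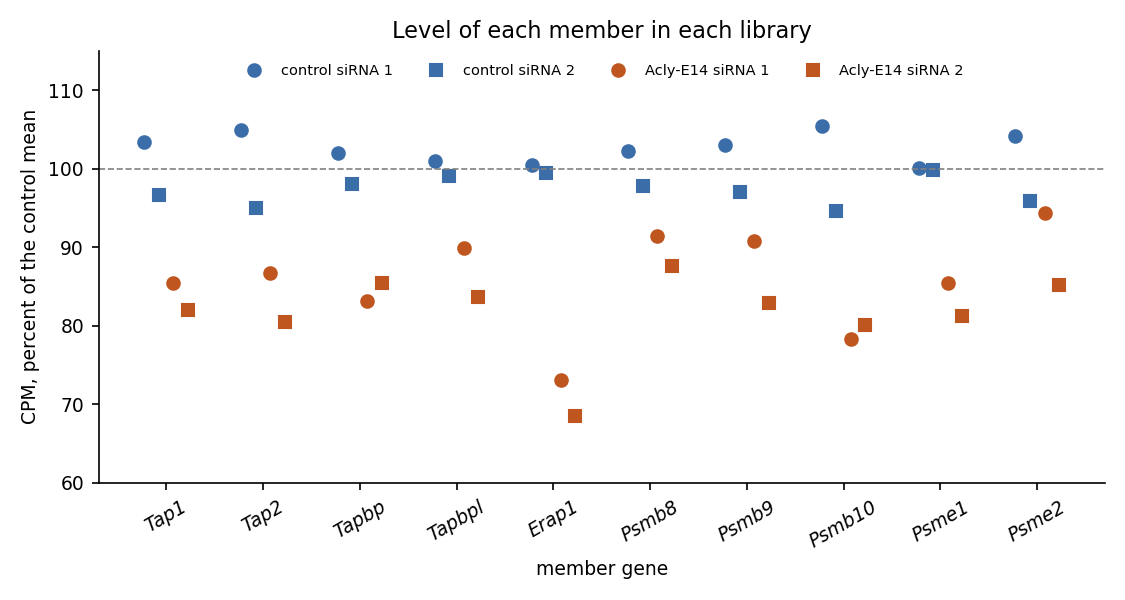
CPM of each member in each of the 4 libraries (y axis, percent of the mean of both controls; x axis, gene; blue, control siRNA; orange, Acly-E14 siRNA; circles, replicate 1; squares, replicate 2). The y axis starts at 60. Every orange point lies below both blue points of its gene, with the widest gap for Erap1 and the narrowest for Psme2.

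The transporter genes moved in parallel. Tap1, which encodes an ATP-binding chain of the peptide pump, stood at 857 and 800 CPM in controls and at 708 and 680 CPM with Acly-E14 siRNA. Tap2, for the other chain, stood at 433 and 392 CPM against 358 and 332 CPM. Neither gene's groups overlapped. The log2 fold change was -0.26 for Tap1 (SE 0.060, edgeR adjusted p = 0.024) and -0.26 for Tap2 (SE 0.072, adjusted p = 0.039). The Tap1 to Tap2 count ratio, on the log2 scale, was 1.01 ± 0.032 (SD, n = 2) in controls and 1.01 ± 0.035 (n = 2) with Acly-E14 siRNA. The RNAs of both genes thus kept the same proportion within the spread of the replicates. Both calls depended on the libraries. The adjusted p was 0.125 for Tap1 and 0.184 for Tap2 without control library 1. Omitting the first Acly-E14 siRNA library gave 0.0587 and 0.0584, and omitting the second gave 0.113 and 0.167. The Tap2 call was also lost with library totals (0.0871), no filter on low counts (0.0711) or limma (0.0945), and that of Tap1 with limma (0.0521).

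Erap1, the peptidase that trims the ends of peptides in the endoplasmic reticulum, had the lowest value relative to control. It stood at 304 and 301 CPM in controls and at 221 and 207 CPM with Acly-E14 siRNA. The controls were almost level with each other, and the gap to the other group was far wider than either pair's spread. Erap1 fell to 70.8% of control, a log2 fold change of -0.50 with an SE of 0.056 (edgeR adjusted p = 0.0027). It was the lowest of the 10 members in all 11 fits (10 of them alternatives), and the only member whose call held when any 1 library was left out (adjusted p up to 0.0277). Erap1 shares 834 exon bases with Cast, the calpastatin gene on the opposite strand, and the strand setting of the counts is not given in the sources used here. Cast itself stood at 155 and 143 CPM in controls and at 167 and 172 CPM with Acly-E14 siRNA, so the neighbour did not have the lower values of Erap1 (edgeR adjusted p = 0.064).

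Both tapasin genes fell. Tapbp encodes the protein that bridges the transporter and the class I molecule, and it had the most CPM of the members, 2128 and 2045 in controls and 1735 and 1783 with Acly-E14 siRNA. Its log2 fold change was -0.25 (SE 0.057, edgeR adjusted p = 0.022). Tapbpl stood at 180 and 176 CPM against 160 and 149 CPM, a log2 fold change of -0.20 (SE 0.059, adjusted p = 0.045). Neither call held when any single library was omitted, with adjusted p of 0.0608 to 0.111 for Tapbp and 0.0613 to 0.208 for Tapbpl. The adjusted p of Tapbp was 0.0521 with library totals and 0.0557 with limma, and that of Tapbpl was 0.159 and 0.131, with 0.0787 by DESeq2 and 0.0725 without a filter. In GENCODE M21, Tapbp shares 149 exon bases with Zbtb22 on its own strand, a gene at 15.6 to 18.6 CPM. Tapbp also shares 904 with the antisense gene Gm19412, which was at or below 1.19 CPM.

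Among the 3 inducible catalytic subunits only Psmb10 passed the test. Psmb10 encodes beta2i (MECL-1), the inducible subunit with trypsin-like activity. It stood at 369 and 331 CPM in controls and at 274 and 280 CPM with Acly-E14 siRNA, with a log2 fold change of -0.34 and an SE of 0.068 (edgeR adjusted p = 0.014). The adjusted p was 0.0762 without control library 1, and 0.0606 and 0.0536 on omitting the first or the second Acly-E14 siRNA library. Psmb8 encodes beta5i (LMP7), with chymotrypsin-like activity, and stood at 304 and 290 CPM against 272 and 260 CPM (log2 fold change -0.16, SE 0.056, adjusted p = 0.074). Psmb9 encodes beta1i (LMP2) and stood at 98.6 and 92.9 CPM against 86.9 and 79.3 CPM (log2 -0.20, SE 0.071, adjusted p = 0.074). The groups did not overlap for either gene, but the differences were not past the threshold.

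Psmb9 and Tap1, which start back to back, kept close to one proportion. The log2 ratio of Tap1 to Psmb9 counts was 3.12 and 3.11 in controls and 3.03 and 3.10 with Acly-E14 siRNA, a difference of -0.05. Their exons in GENCODE M21 share 212 bases on opposite strands, though the gene models used for counting are not stated. Where the counted models overlap, reads cannot be assigned without the strand setting. Psmb8 and Tap2 also share exon bases, 498 and 165, with the antisense gene Gm20496, and Tap2 shares 533 with the long noncoding RNA gene Gm15821 on the opposite strand. Neither of these genes was among those tested.

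The PA28 cap genes had lower values too, with 1 of them called. Psme1 (PA28 alpha) stood at 205 and 204 CPM in controls and at 175 and 166 CPM with Acly-E14 siRNA. Its log2 fold change was -0.26 with an SE of 0.054 (edgeR adjusted p = 0.016). Omitting either control gave an adjusted p of 0.0839 (library 1) or 0.0686 (library 2), and omitting the second Acly-E14 siRNA library gave 0.0878. Psme2 (PA28 beta) stood at 103 and 94.5 CPM against 93.0 and 84.0 CPM, a log2 fold change of -0.16 (SE 0.077, adjusted p = 0.17). This value was -0.10 on omitting control library 1 and -0.08 on omitting the second Acly-E14 siRNA library. Here the lower control and the higher Acly-E14 siRNA library were almost level. The log2 ratio of Psme1 to Psme2 counts was 1.06 ± 0.082 in controls and 0.95 ± 0.052 with Acly-E14 siRNA (SD, n = 2 each).

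**Figure D2:**
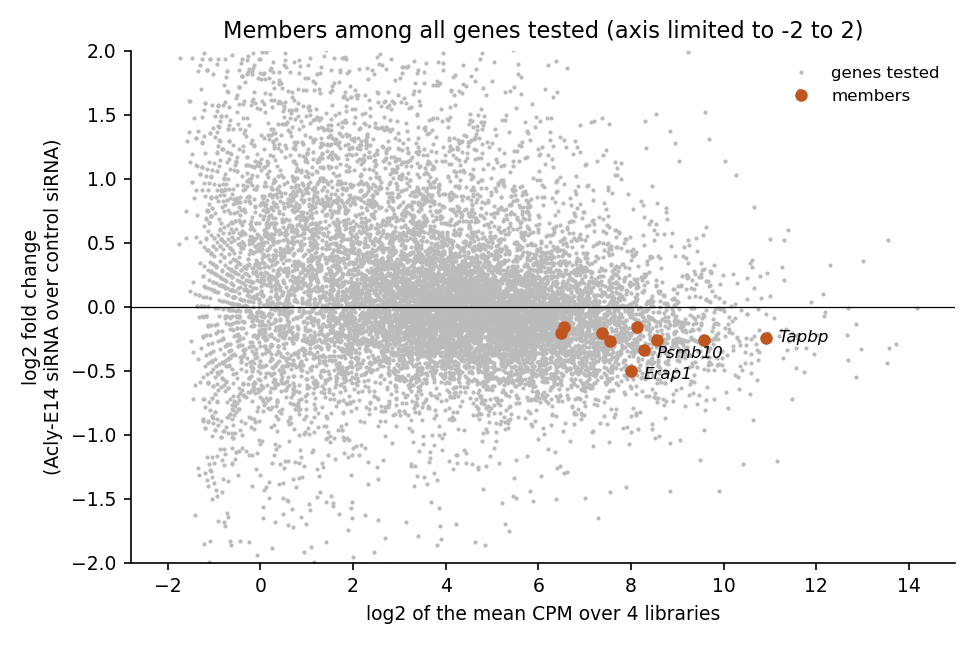
Log2 fold change (y axis, Acly-E14 siRNA over control siRNA) against log2 of the mean CPM over 4 libraries (x axis) for all genes tested (grey) and the 10 members (orange). The members all lie below 0, between -0.50 and -0.16, in the abundant part of the plot, where grey points also lean below 0.

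Counting error was small beside these differences. The lowest member count was 1737, for Psmb9, where counting alone gives a relative error of 2.4%, and for Tapbp, with 37920 counts or more, it was at most 0.514%. The order of the replicates was the same for most members, and the matching share over all genes was not counted. Control library 1 was above control library 2 for 10 of 10 members, and Acly-E14 siRNA library 1 above library 2 for 8 of 10, the exceptions being Tapbp and Psmb10.

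Each inducible subunit replaces a constitutive counterpart, and the counterparts did not all move the same way. Psmb5 (beta5) stood at 57.9 and 56.1 CPM against 47.4 and 45.2 CPM and fell by 0.30 on the log2 scale (edgeR adjusted p = 0.020). Psmb6 (beta1) stood at 434 and 400 CPM against 352 and 342 CPM and fell by 0.26 (adjusted p = 0.022). Psmb7 (beta2) went the other way, from 65.6 and 65.2 CPM to 84.1 and 87.0 CPM, a 1.31-fold rise (adjusted p = 0.0058). The call of Psmb7 held without each library in turn, with adjusted p between 0.0242 and 0.0438. Without control library 1, those of Psmb5 and Psmb6 were lost (0.0853 and 0.119), as they were without Acly-E14 siRNA library 1 (0.0607 and 0.0625) or library 2 (0.119 and 0.103), and for Psmb5 also without control library 2 (0.0538) or with library totals (0.0512).

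A ratio of 2 genes within a library needs no scaling between libraries, so 8 such ratios were compared. With 2 libraries against 2, the smallest p an exact two-sided permutation test can give is 0.333, so none of them could pass a threshold of 0.05. The log2 count ratio of Psmb10 to Psmb7 was 2.49 and 2.34 in controls and 1.70 and 1.69 with Acly-E14 siRNA. This was a difference of -0.72, or 0.607 of the control ratio (exact permutation p = 0.333, 0.444 adjusted over the 8 ratios). The replicate SD was 0.104 in controls and 0.0105 with Acly-E14 siRNA. In the Psmb8 to Psmb5 pair the ratio was 2.39 and 2.37 in controls and 2.52 and 2.53 with Acly-E14 siRNA, a difference of 0.14 in the other direction with the same exact p. Psmb9 to Psmb6 overlapped between the groups, at -2.14 and -2.11 against -2.02 and -2.11 (exact permutation p = 0.667). The inducible to constitutive ratio was thus lower for the beta2 pair and higher for the beta5 pair in both Acly-E14 siRNA libraries, without a test that could pass, and overlapped for the beta1 pair.

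**Figure D3:**
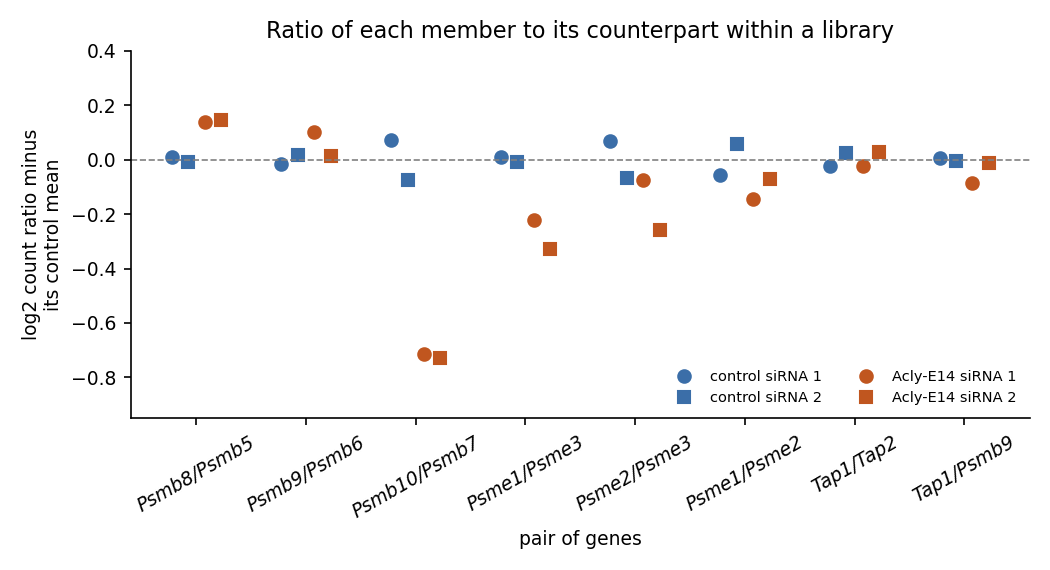
Log2 ratio of the counts of 2 genes in each library, less the mean of both controls (y axis), for 8 pairs (x axis; colours and shapes by group and replicate). Psmb10/Psmb7 stands 0.72 below the control mean, while the other 7 pairs differ between groups by at most 0.28.

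Other caps and the inhibitor of the proteasome were compared next. Psme3 encodes PA28 gamma, a nuclear relative of the PA28 subunits, and stood at 72.2 and 73.1 CPM against 72.3 and 74.1 CPM (log2 0.01, SE 0.058, edgeR adjusted p = 0.90). The log2 ratio of Psme1 to Psme3 counts was 1.49 ± 0.014 in controls and 1.22 ± 0.077 with Acly-E14 siRNA (SD, n = 2 each). Psme4, the gene for the PA200 cap, fell by 0.34 (adjusted p = 0.014), and Psmf1, which encodes the inhibitor PI31, had a log2 fold change of -0.07 (adjusted p = 0.55). The Psme4 call was lost without control library 1 (0.083) or Acly-E14 siRNA library 2 (0.0726).

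Genes for the rest of the proteasome were called in part. Of 11 other core subunit genes, edgeR called 5 lower and 0 higher, with a median log2 fold change of -0.18. At an unadjusted p under 0.05 it was 7 lower and 1 higher, with DESeq2 3 and 0, and with limma 2 and 1. Psmb1, a structural beta subunit gene, fell by 0.38 (edgeR adjusted p = 0.0054) and Psma4 by 0.32 (0.0087), and both calls held without each library in turn. Psma1 and Psma2 fell by 0.26 and 0.23, calls lost without control library 1 (adjusted p = 0.119 and 0.122), Acly-E14 siRNA library 1 (0.101 and 0.0564) or library 2 (0.123 and 0.141), and for Psma2 without control library 2 (0.0864). With library totals they were 0.0754 and 0.0884, with limma 0.0594 and 0.0622, and for Psma1 0.0536 by DESeq2 and 0.0526 without a filter. Of 17 regulatory particle genes, 4 were called lower and 1, Psmd3, higher, with a median of -0.12; DESeq2 called 1 lower and 1 higher, and limma 0 and 1. Psmd8 fell by 0.32 and Psmd14, a deubiquitinase gene, by 0.26. Without control library 1 the adjusted p was 0.136 for Psmd3, 0.0902 for Psmd8, 0.0908 for Psmd6 and 0.0908 for Psmd14, and other single libraries also removed these calls. Those of Psmd6 and Psmd14 were lost with library totals (0.0986 and 0.0828) and DESeq2 (0.0756 and 0.0684) too, and that of Psmd3 without a filter (0.0665). Of 5 assembly chaperone genes, edgeR called 0, also at an unadjusted p under 0.05, as did DESeq2 and limma. Pomp, which encodes the chaperone that builds the immunoproteasome, stood at 70.9 and 73.9 CPM against 67.5 and 65.2 CPM (log2 -0.13, adjusted p = 0.17).

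Of 6 partners of the members in peptide loading, edgeR called 2 higher and 0 lower (1 lower at an unadjusted p under 0.05, 0 by DESeq2 and limma). Canx encodes calnexin, a chaperone of new class I chains, and rose 1.46-fold, from 214 and 198 CPM to 295 and 303 CPM (edgeR adjusted p = 0.0026). Pdia3 encodes ERp57, the disulfide isomerase tied to tapasin, and rose 1.47-fold, from 232 and 260 CPM to 348 and 377 CPM (adjusted p = 0.0046). Both calls held without each library in turn. Calr, the calreticulin gene, stood at 569 and 612 CPM against 613 and 635 CPM (log2 0.08, SE 0.060, adjusted p = 0.36). So the transporter and tapasin genes were called lower and the calnexin and ERp57 genes higher, while the other partners were not called.

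Among the class I genes, B2m, for the light chain, stood at 4075 and 4655 CPM in controls and at 5240 and 4109 CPM with Acly-E14 siRNA, groups that overlap (edgeR adjusted p = 0.60). H2-D1 overlapped too, at 6441 and 6688 CPM against 6860 and 6216 CPM, and H2-K1 stood at 2722 and 2834 CPM against 2517 and 2404 CPM (log2 -0.18, adjusted p = 0.071). Of 10 other class I and class I-like genes, 8 were called lower and 1, Mr1, higher, with a median of -0.25, and limma called 4 lower. H2-T24 fell by 0.39, H2-T10 by 0.38, H2-T22 by 0.35 and H2-M3 by 0.32 (adjusted p from 0.0070 to 0.0098). The H2-T22 call held without each library. Leaving out control library 1 removed those of H2-T24 (0.0557), H2-T10 (0.0523) and H2-M3 (0.0579), as did Acly-E14 siRNA library 1 for H2-T10 (0.0519) and library 2 for H2-M3 (0.0645). Counts of class I genes are uncertain, since reads can be shared between near-identical copies.

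Of 7 peptidase genes of the cytosol and endoplasmic reticulum, 1 was called lower and 1 higher (1 and 0 by DESeq2). Lap3, a leucine aminopeptidase gene, fell by 0.33 (edgeR adjusted p = 0.0080, and 0.0579 without control library 1). Thop1, an oligopeptidase gene, rose 1.41-fold (0.024), a call lost without any 1 library (0.0503 to 0.0994) and by DESeq2 (0.0649). Tpp2 and Blmh had log2 fold changes of 0.22 and -0.30 (adjusted p = 0.065 and 0.051).

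Of 11 genes for factors known to act on the members, edgeR called 5 lower and 0 higher, with a median of -0.26. At an unadjusted p under 0.05 it was 7 lower and 1 higher, with DESeq2 6 and 0, and with limma 3 and 0. Nlrc5, the class I transactivator gene, stood at 538 and 515 CPM in controls and at 460 and 422 CPM with Acly-E14 siRNA (log2 -0.26, SE 0.064, edgeR adjusted p = 0.028). Irf1, whose product binds interferon response elements, stood at 554 and 506 CPM against 456 and 412 CPM (log2 -0.29, adjusted p = 0.033). Irf9, the DNA-binding part of the type I interferon complex, fell the most of the 11, by 0.54 (adjusted p = 0.0026), and Irf2 and Irf8 fell by 0.42 and 0.41. The Irf9 call held without each library in turn, while those of Nlrc5 (up to 0.140), Irf1 (0.161), Irf2 (0.0853) and Irf8 (0.0705) were lost without at least control library 1 and Acly-E14 siRNA library 2. With library totals the adjusted p was 0.0658 for Nlrc5 and 0.0656 for Irf1, with limma 0.076 and 0.0744, and for Irf1 0.062 without a filter. Whether the regulators account for the members' values was not tested.

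**Figure D4:**
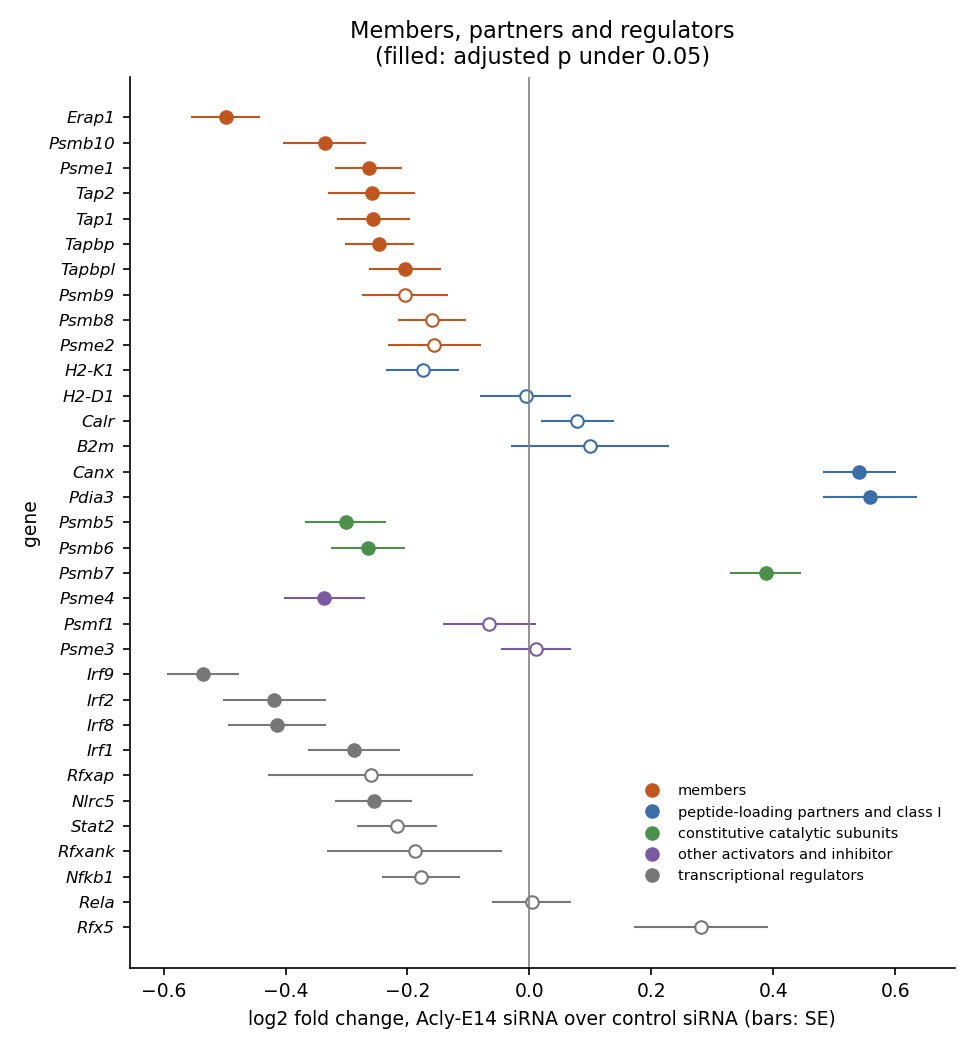
Log2 fold change of Acly-E14 siRNA over control siRNA (x axis; bars, SE from edgeR) for the members and the named partner, subunit, cap and regulator genes (y axis); filled points have an adjusted p under 0.05. All 10 members lie left of 0, with Canx, Pdia3 and Psmb7 as the filled points to the right.

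Upstream of these factors, 2 of 7 interferon receptor and kinase genes were lower and 1 higher. Tyk2 fell by 0.56 (edgeR adjusted p = 0.0024) and Jak1 by 0.25 (0.018), while the receptor gene Ifnar1 rose 1.17-fold (0.024). The Tyk2 call held without each library, and those of Jak1 and Ifnar1 were lost without control library 1 among others (0.103 and 0.141). Of 12 interferon-stimulated genes set beside the members, edgeR called 9 lower and 1 higher, and limma 6 and 1. Their median log2 fold change was -0.29. Ifit2 and Ifit1, which encode binders of foreign RNA, fell to 68.5% and 71.9% of control, and Ifi44 to 75.2% (edgeR adjusted p = 0.0031, 0.0034 and 0.0036). Rsad2, the viperin gene, rose 1.44-fold, from 10035 and 9502 CPM to 14431 and 13652 CPM (0.0046), and all 4 calls held without each library in turn.

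Of 8 tested genes of a class II list, Brd2 and 5 H2 genes lie near Psmb9, Tap1, Psmb8 and Tap2 on chromosome 17, while Cd74 and Ciita lie on other chromosomes and were not called. Of the list edgeR called 2 higher and 1 lower (1 and 1 by DESeq2, 3 and 1 by limma). H2-Ab1 and H2-DMa were higher, 1.36-fold and 2.02-fold, and Brd2 lower by 0.58 (edgeR adjusted p = 0.020, 0.017 and 0.0019). H2-DMa had 3.23 and 4.54 CPM in controls and 8.56 and 7.17 CPM with Acly-E14 siRNA. The Brd2 call held without each library, those of H2-Ab1 (0.0684 to 0.0892) and H2-DMa (0.0646 without control library 1, 0.0812 without Acly-E14 siRNA library 1) did not, and H2-Ab1 had 0.085 by DESeq2. Without Psmb9, Tap1, Psmb8 and Tap2 the median of the other 6 members was -0.25, as for all 10. Those 6 include Tapbp, which lies on the same chromosome.

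Per gene length, Tapbp and Psmb10 led the members. The deposited FPKM (counts per kilobase of gene length, scaled to the library total) in controls were 433 and 425 for Tapbp and 278 and 255 for Psmb10. Psmb8, Tap2, Tapbpl, Erap1 and Tap1 followed between 66.8 and 77.4, where neighbours in the order overlapped in controls except Erap1 above Tap1. Psme1 at 33.0 and 33.6, Psme2 at 27.9 and 26.3 and Psmb9 at a mean of 14.7 came last, each pair of libraries separate from the next. With Acly-E14 siRNA the FPKM of Erap1 was 56.4 and 53.6, below Tap1 at 61.8 and 60.1, where the second value of each was recomputed from the count.

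The order depends on the gene length used. The length implied by the FPKM of Tap1 was 11741 bases, longer than the whole gene span of 9673 bases. After rounding to the nearest base it equals the sum of all distinct annotated exons, in which overlapping exons of different transcripts are each counted in full. The same equality held for Tap2, Tapbpl and Psme2, and for 5928 of 9079 genes with at least 100 counts in control library 1, while merged exon length matched 593. It did not hold for Tapbp, Erap1, Psmb8, Psmb9, Psmb10 and Psme1. For Erap1 the implied length was 4014 bases, against 8012 for distinct exons and 7280 for merged exons. For those members the GENCODE M21 lengths used below may not be those of the counted gene models. With merged exons (5476 bases) Tap1 was number 3 of the members in place of number 7, at a control mean FPKM of 146 against 68.3. With the longest coding transcript it was number 2, at 272, and Erap1 last, at 51.8. Tapbp was first with each of the 3 lengths. Such a length changes comparisons between genes and not those between groups of 1 gene.

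The genes outside the lists whose 4 library values lay nearest the median member profile were Napa, Cd84 and Spred1, with Euclidean distances of 0.0102, 0.0107 and 0.0112 on the log2 CPM scale over 4 libraries. Napa, for example, stood at 98.8 and 94.6 CPM in controls and at 83.5 and 79.9 CPM with Acly-E14 siRNA.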

How the data were processed

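RNA from 4 libraries was sequenced. The authors deposited whole-number counts per gene and FPKM values, per the file headers. The submitters' processing notes name HISAT2, StringTie 1.3.0, edgeR and mm10; what each did, the counting program, its strand setting and the gene models are not stated in the labels. The 1 FPKM column without a replicate number was not used; FPKM of the second Acly-E14 siRNA library were computed from its counts and the gene lengths the other columns imply. Symbols matched 34267 of 34745 IDs.

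Counts were tested with edgeR 4.0.16 (R 4.3.3): filterByExpr (minimum count 10), TMM factors, quasi-likelihood F test without covariates, Benjamini-Hochberg over 13108 genes, threshold 0.05. SEs are implied by the F statistic. Alternatives were a replicate block, each library left out, RLE factors, library totals, no filter and a threshold of 0.1. DESeq2 1.42.0 and limma 3.58.1 on log2(FPKM + 1) were also run, the latter scaled to library totals without TMM factors. Recomputed FPKM lengths were added after seeing the data. The members and lists were chosen with earlier results of these data known. Named are the members, Acly, fixed partners, up to 4 genes of smallest p per pathway list, and the 3 nearest profiles; Mr1, Psmd3, Cast and other overlapping neighbours were named after their values were seen. One gene of the regulator list is not reported here. Protein sequences were not used here. Intervals of counting cover counting error only.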

Additional observations from a re-analysis of the deposited data

How the results depend on the processing

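The log2 fold changes of the 10 members were negative in the main fit and in all 10 alternative fits; the number called was less firm. Against 7 members lower in the main fit, leaving out single libraries gave 1 to 4, with 1 without control library 1 or without Acly-E14 siRNA library 2, library totals alone gave 4 and limma on log2(FPKM + 1) gave 3. Over all genes, leaving out single libraries gave 982 to 1400 lower and 1045 to 1815 higher, and limma 1389 lower. The median member change ranged from -0.28 to -0.16 over these fits. With the replicate number as a block, 9 members were called lower, Psmb8 and Psmb9 being added, and 2382 genes were lower and 2514 higher. Deviations of same-numbered libraries correlated at 0.136 over genes, but only 2 numbers are shared, so the libraries are taken to share a number only. Of 660 pairs of a named gene and an alternative, 117 lost a call, 12 gained one and 0 reversed. Relative to the main fit, the median log2 fold change of the genes tested shifted by 0.0911 with library totals and by 0.0479 with limma. Neither setting used TMM factors. The cause of the differences in calls was not tested, beyond fewer libraries where some were left out. The lowest member count was 1737, where counting alone gives a relative error of 2.4%.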
